A study of Homo sapiens with 18 samples.

Results

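A set of 34 genes of the NRF2 antioxidant programme and of NADPH supply was followed in A549 cells, a human lung adenocarcinoma (NSCLC) line, kept with or without sodium propionate (SP). The 34 genes were chosen by name, with earlier results of these data known and with aldehyde dehydrogenases and AKR1 genes left out, and are 34 of the 61541 Ensembl genes listed in each of 2 count tables. All 34 passed the expression filter in both tables, so all were tested. The study compared A549 cells treated with SP against untreated cells to follow gene expression over time. Each of the 6 groups held 3 RNA-seq libraries, 18 in all, and the genotype label of every library was WT. The first table held untreated cells (control 3 days) and cells in 5 mM SP for 3 days or 12 days. The second held untreated cells (control 24 h) and cells in 5 mM SP for 3 h or 24 h. SP 3 h was therefore set against a control of another time, and SP 12 days against a control of 3 days, so the effects of SP and of culture time cannot be told apart in these 2 comparisons. RNA was taken from whole cultures, where a lower level in every cell and a loss from some cells cannot be told apart. Labels do not say whether libraries of a group came from separate cultures, and p-values measure the spread between these libraries only.

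NRF2, the product of NFE2L2, is a transcription factor that pairs with small MAF proteins such as MAFG on antioxidant response elements. KEAP1 binds NRF2 and hands it to a CUL3 ubiquitin ligase for degradation, and oxidants or electrophiles that modify KEAP1 let NRF2 accumulate. Its targets make and recycle glutathione and thioredoxin, handle heme and iron, detoxify quinones and epoxides, and supply the NADPH on which these reductases run. A549 cells are known to carry an inactivating mutation in KEAP1 and to have high NRF2 activity without any inducer.

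Short promoter stretches are shown because the members are linked by this element, of which TGACNNNGC is the core. The core was searched on both strands in RefSeq promoter windows (GRCh38.p14, from 250 bases before to 50 after a start), and 27 of the 34 genes had a window. It was found in 10 of these 27 genes (37.0%), against 4384 of 27305 genes (16.1%) overall. One match is printed, 5′ to 3′ with the core in capitals, for each of the 7 genes that had one and passed the test described below in a comparison with control. They lie at chr19:10502784-10502812 (plus strand) for KEAP1, chr1:93909446-93909474 (plus) for GCLM, chr12:16347135-16347163 (plus) for MGST1, chr6:83431170-83431198 (minus) for ME1, chr1:10398853-10398881 (minus) for PGD, chrX:15493289-15493317 (plus) for PIR and chr1:225825266-225825294 (plus) for EPHX1.
KEAP1: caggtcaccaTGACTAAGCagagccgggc
GCLM: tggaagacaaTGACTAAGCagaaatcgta
MGST1: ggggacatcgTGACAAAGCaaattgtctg
ME1: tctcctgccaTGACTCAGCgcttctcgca
PGD: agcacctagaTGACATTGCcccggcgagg
PIR: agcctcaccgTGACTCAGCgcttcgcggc
EPHX1: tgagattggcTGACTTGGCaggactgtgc

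The ME1 and PIR matches also hold the AP-1 core TGANTCA, which overlaps the element. EPHX1 was the one gene with a match that rose in any comparison with control. TXNRD1, GPX2 and CBR1 also held a match, but passed in no comparison with control and are not printed. A match is a stretch of letters and was not tested for binding.

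Counted reads per library ran from 14187401 to 43765330. All 5 epithelial markers checked (KRT8, KRT18, KRT7, EPCAM, CDH1) were detected in every library, and 9 of 12 markers of leukocytes, macrophages, endothelium, fibroblasts and red cells stayed under 1 CPM (counts scaled to a common library size) throughout, with CD14, LUM and COL1A1 as the exceptions. The spread was wider in the second table, where standard errors of log2 fold changes had a median of 0.20 against 0.13 in the first. Control 24 h replicate 3 correlated least with its own group (mean r = 0.975), and it stood apart from the other control 24 h libraries for SLC7A11 and NFE2L2. Levels below are CPM after TMM normalization, and tests are edgeR quasi-likelihood tests with Benjamini-Hochberg (BH) adjustment over all tested genes, with ± giving the standard error of a log2 fold change.

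Per kilobase of exon, the most abundant member in control 3 days was FTL, the ferritin light chain, at 6604 CPM per kb. FTH1, the ferritin heavy chain, followed at 1132, and NQO1, a quinone reductase often used as the readout of NRF2 activity, at 536. The lowest were GSTM3 at 1.51, CBR3 at 2.64 and NFE2L2 at 4.75 CPM per kb. These values divide by all annotated exons, 14975 bp for NFE2L2, of which 5747 bp are shared with other genes. For FTH1, 1267 of 2004 bp are shared with BEST1, and for CBR3, 710 of 998 bp are shared with CBR3-AS1. Without the division NFE2L2 stood at 71.2 CPM in control 3 days, above PIR at 58.3 CPM and some other members. The 34 genes together took 2.15% ± 0.0772 (SD, n = 3) of the counted reads in control 3 days. Their share was 1.55% ± 0.0254 in SP 3 days and 1.65% ± 0.135 in SP 12 days (SD, n = 3 each), with no overlap with the control in either. In the second table it was 1.83% ± 0.148 in control 24 h, 1.68% ± 0.0815 in SP 3 h and 1.59% ± 0.0635 in SP 24 h (SD, n = 3 each). The SP 24 h libraries, at most 1.66%, lay just below the lowest control, also 1.66%. FTL alone stood at 5752 CPM in control 3 days, so it weighs heavily in these sums.

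**Figure D1:**
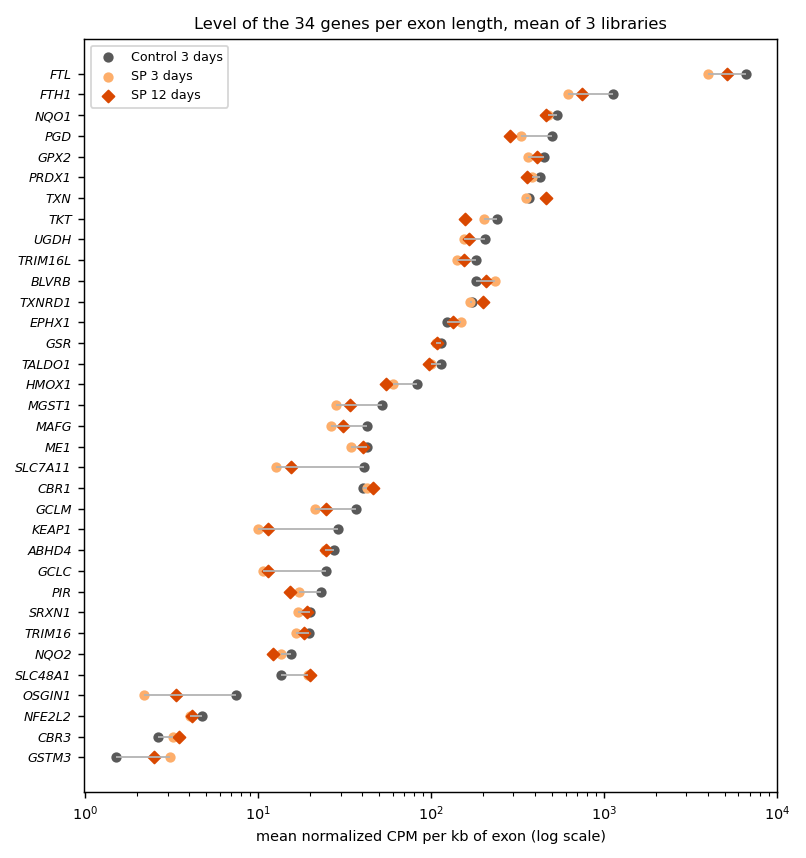
Mean normalized CPM per kb of exon (x axis, log scale) of the 34 genes (y axis, ordered by control 3 days) in the 3 groups of the first table, each point the mean of 3 libraries. FTL stands highest at 6604 and GSTM3 lowest at 1.51 in the control, and GCLC, SLC7A11, KEAP1 and OSGIN1 show the widest gaps to their SP points.

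The genes moved mostly downward. At an adjusted p under 0.05, 0 rose and 5 fell at 3 h, where 7.39% of all tested genes rose and 4.11% fell. At 24 h, 5 rose and 13 fell, against 16.8% and 12% of all tested genes. At 3 days, 3 rose and 18 fell, against 25.2% and 23.3%. At 12 days, 3 rose and 18 fell, against 26.4% and 23.4%. In time order, the median log2 fold change of the 34 genes was -0.10, -0.24, -0.24 and -0.23, while that of all tested genes lay between -0.02 and 0.00. The SP libraries lay wholly above the controls for 3, 6, 4 and 4 members and wholly below for 5, 20, 23 and 20, in time order. The same held above for 15.6%, 24.6%, 30.5% and 28.7% of all tested genes, and below for 11.7%, 19.8%, 30.7% and 27.3%. These figures describe a chosen list. The 3 h and 24 h comparisons share their control libraries, as do those of 3 and 12 days.

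Over the 4 comparisons with control, 22 of the 34 genes fell at least once and never rose, against 32.2% of the 16654 genes tested in both tables, and 5 rose at least once and never fell, against 33.2%. TXN, thioredoxin, did both, though its rise was lost in 4 of 15 alternatives. A further 6 genes (ABHD4, CBR1, CBR3, GPX2, NQO1 and TXNRD1) passed the test in none, as did 32.4% of all genes tested in both tables. KEAP1, MAFG, OSGIN1 and TRIM16L fell at all 4 times, against 1.62%. Of these 4, KEAP1 and OSGIN1 kept every such call in the 15 alternative analyses, while MAFG lost its call at 24 h in 10 of 15 and TRIM16L its calls at 24 h and 12 days in 2 and 6 of 15. Of the 10 genes with a match to the core in their promoter window, 1, 5, 6 and 5 fell in time order and 0, 1, 0 and 0 rose. Of the 17 with a window and no match, 3, 7, 8 and 8 fell and 0, 3, 3 and 3 rose. The counts of these small sets were not tested against each other. The shares of all genes with or without a match that rose or fell are not given. These counts are therefore not shown to be particular to the listed genes. The windows cover only a short stretch around a start, so a gene without a match may hold the core further away. With the thresholds of the study, an adjusted p under 0.0001 and a change of at least 2-fold, 0 genes of the list passed at 3 h or 24 h, against 0% of all tested genes at 3 h and 0.622% higher and 0.0633% lower at 24 h. At 3 days 1 rose and 4 fell by that rule, against 6.58% and 1.86%, and at 12 days 0 rose and 4 fell, against 6.88% and 2.23%. The 4 that fell were KEAP1, SLC7A11, GCLC and OSGIN1 at both times. A correction took out how each library's counts depend on GC content and length of the transcripts. It changed the split at 24 h to 1 higher and 18 lower. The median of all genes there also moved down, from -0.01 to -0.13. The shares of all tested genes that passed with the correction are not given, so this shift is not shown to be particular to the 34 genes.

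**Figure D2:**
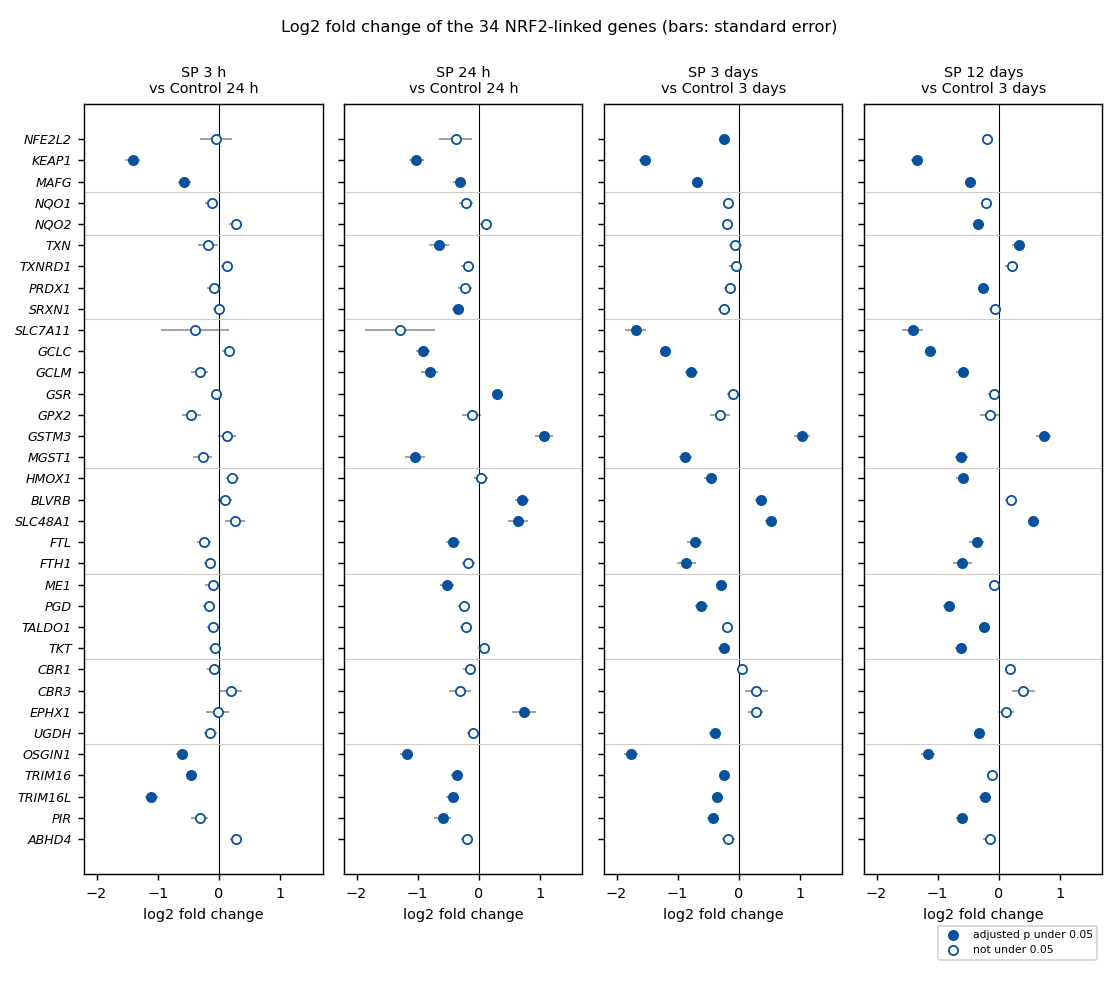
Log2 fold change (x axis) of each gene (y axis, grouped by role) in the 4 comparisons with control, with bars for the standard error, filled points for an adjusted p under 0.05 and open points otherwise. KEAP1 and OSGIN1 lie below 0 in all panels, GSTM3 is the highest filled point at 24 h, 3 days and 12 days, and NQO1 has open points throughout.

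The sensor and transcription factors were led by the repressor. KEAP1 (ENSG00000079999, chr19:10486125-10503558) stood at 128, 125 and 133 CPM in control 24 h, at 57.6, 43.6 and 44.5 in SP 3 h, and at 67.2, 62.6 and 60.2 in SP 24 h. In the first table it stood at 101, 97.6 and 113 CPM in control 3 days, at 36.3, 36.7 and 34.7 in SP 3 days, and at 39.1, 47.1 and 36.9 in SP 12 days. Every SP library lay below every control library of its table. KEAP1 fell by 1.41 ± 0.12 on the log2 scale at 3 h (edgeR, BH-adjusted p = 0.000484), a 2.66-fold difference, and by 1.02 ± 0.12 at 24 h (edgeR, adjusted p = 0.000417). It fell by 1.53 ± 0.10 at 3 days and by 1.34 ± 0.10 at 12 days (edgeR, adjusted p = 6.2e-09 and 2.06e-08). With the GC and length correction the fall at 24 h was 1.60.

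NFE2L2 (ENSG00000116044, chr2:177218667-177392756), which encodes NRF2 itself, stood at 80.5, 74.7 and 40.1 CPM in control 24 h, at 57.4, 52.7 and 78.9 in SP 3 h, and at 59.4, 49.8 and 41.1 in SP 24 h. These groups overlapped, and control 24 h replicate 3 was lower than every SP library. The first table gave 67.9, 78.8 and 66.8 CPM in control 3 days, against 58.1, 60.9 and 61.7 in SP 3 days and 63.7, 64.0 and 58.7 in SP 12 days. Here every SP library lay below the controls, yet by a small margin. NFE2L2 fell by 0.24 ± 0.09 at 3 days (edgeR, adjusted p = 0.0288), a call lost in 5 of 15 alternatives, and its log2 fold change at 12 days was -0.20 ± 0.08 (edgeR, adjusted p = 0.0661). Without control 24 h replicate 3 its log2 fold change at 24 h moved from -0.38 to -0.64 and passed the test (edgeR, adjusted p = 0.0304). Exons of NFE2L2 share 5747 bp with other annotated genes, HNRNPA3 among them.

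MAFG, the small MAF partner, stood at 167, 164 and 177 CPM in control 24 h, at 129, 111 and 103 in SP 3 h, and at 141, 128 and 139.8 in SP 24 h. The first table gave 222, 214 and 233 CPM in control 3 days, against 136, 144 and 139 in SP 3 days and 162, 159 and 163 in SP 12 days. No SP library reached its control range. MAFG fell by 0.57 ± 0.11 at 3 h (edgeR, adjusted p = 0.00874), by 0.68 ± 0.07 at 3 days (edgeR, adjusted p = 1.48e-06) and by 0.46 ± 0.07 at 12 days (edgeR, adjusted p = 6.42e-05). At 24 h it fell by 0.31 ± 0.11 with an adjusted p of 0.0498 by edgeR, a call that was lost in 10 of 15 alternatives, the fit with a replicate block among them (edgeR, adjusted p = 0.0533).

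Of the quinone reductases, which reduce quinones without releasing radicals, NQO1 passed at no time. NQO1 (ENSG00000181019, chr16:69706996-69726668) stood at 1709, 1552 and 1346 CPM in control 24 h, at 1312, 1465 and 1471 in SP 3 h, and at 1269, 1431 and 1289 in SP 24 h. In control 3 days it stood at 1619.6, 1525 and 1629.8 CPM, against 1411, 1415 and 1404 in SP 3 days and 1421, 1447 and 1270.5 in SP 12 days. The SP libraries of the first table lay below the controls and those of the second overlapped them. Its log2 fold changes were -0.12, -0.21, -0.17 and -0.21 in time order, the last with an adjusted p of 0.0502 by edgeR and of 0.0167 by DESeq2. NQO2, a related enzyme that uses other electron donors, fell by 0.34 ± 0.08 at 12 days (edgeR, adjusted p = 0.00313) and passed at no earlier time.

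Genes that make glutathione fell, GCLC and GCLM from 24 h on and SLC7A11 from 3 days on. GCLC (ENSG00000001084, chr6:53497341-53616970), the catalytic subunit of glutamate-cysteine ligase, the rate-limiting enzyme of glutathione synthesis, stood at 209, 215 and 168 CPM in control 24 h and at 210.1, 227 and 224 in SP 3 h. In SP 24 h it was at 109, 106 and 98.2 CPM. It then stood at 216, 221 and 203 in control 3 days, at 93.9, 91.0 and 92.5 in SP 3 days, and at 101, 108 and 86.0 in SP 12 days. The SP 3 h libraries overlapped the control and the later ones did not. GCLC fell by 0.92 ± 0.11 at 24 h (edgeR, adjusted p = 0.000469), by 1.21 ± 0.09 at 3 days (edgeR, adjusted p = 2.24e-08) and by 1.12 ± 0.09 at 12 days (edgeR, adjusted p = 4.22e-08). At 3 h its log2 fold change was 0.16 ± 0.11.

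SLC7A11 (ENSG00000151012, chr4:138164097-138242349) is the cystine carrier of system xc-, which brings in the cysteine that glutathione is built from. In control 3 days it stood at 371, 486 and 329 CPM, against 130.2, 125 and 113 in SP 3 days and 158, 175 and 114 in SP 12 days, with no overlap. It fell by 1.69 ± 0.17 at 3 days (edgeR, adjusted p = 1.47e-05), a 3.22-fold difference, and by 1.41 ± 0.17 at 12 days (edgeR, adjusted p = 5.16e-05). In the second table it stood at 368, 349 and 87.4 CPM in control 24 h, at 201, 131 and 282 in SP 3 h, and at 181, 89.4 and 59.3 in SP 24 h, so that control replicate 3 lay among the SP 24 h libraries. Its log2 fold change at 24 h was -1.29 ± 0.57 (edgeR, adjusted p = 0.123), and without that library -1.71 (edgeR, adjusted p = 0.0193). DESeq2 on all libraries gave -1.30 with an adjusted p of 0.0400.

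GCLM, the modifier subunit of the same ligase, fell by 0.80 ± 0.14 at 24 h, 0.78 ± 0.11 at 3 days and 0.59 ± 0.11 at 12 days (edgeR, adjusted p = 0.0032, 2.03e-05 and 0.000281). MGST1, a membrane-bound glutathione transferase, stood at 371, 279.7 and 252 CPM in control 24 h and at 171, 131 and 135 in SP 24 h. It stood at 396, 405 and 359 CPM in control 3 days, at 214, 221 and 197 in SP 3 days, and at 279, 273 and 207 in SP 12 days. Neither later group nor SP 24 h reached its control range. MGST1 fell by 1.05 ± 0.16 at 24 h (edgeR, adjusted p = 0.00149), by 0.88 ± 0.11 at 3 days and by 0.61 ± 0.10 at 12 days (edgeR, adjusted p = 5.34e-06 and 0.000165).

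The glutathione genes did not all fall. GSTM3 (ENSG00000134202, chr1:109733932-109741038), a cytosolic mu-class glutathione transferase, stood at 7.31, 6.82 and 6.77 CPM in control 24 h, at 6.70, 8.30 and 7.78 in SP 3 h, and at 12.9, 14.1 and 16.9 in SP 24 h. In control 3 days it stood at 7.22, 6.89 and 7.39 CPM, against 13.4, 14.6 and 16.3 in SP 3 days and 11.6, 10.6 and 13.5 in SP 12 days. From 24 h on, every SP library lay above every control. The annotation lists 2 GSTM3 pseudogenes that could share reads. GSTM3 rose by 1.07 ± 0.15 at 24 h (edgeR, adjusted p = 0.000808), by 1.04 ± 0.13 at 3 days (edgeR, adjusted p = 7.36e-06) and by 0.74 ± 0.13 at 12 days (edgeR, adjusted p = 0.00021). It was the one member that rose by the thresholds of the study, at 3 days, and the one whose rise at 24 h kept its call with the GC and length correction. GSR, which returns oxidised glutathione to its reduced form, rose by 0.30 ± 0.09 at 24 h (edgeR, adjusted p = 0.0266), a call lost in 8 of 15 alternatives, and had log2 fold changes of -0.10 and -0.07 at 3 and 12 days. GPX2, a glutathione peroxidase of epithelia, passed at no time, with log2 fold changes from -0.45 to -0.11.

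Set per exon length, the ratio of GCLC to GCLM within a library was also compared between groups, a pair looked at after the single values were seen. It was 0.552, 0.617 and 0.649 in control 24 h and 0.788, 0.932 and 0.794 in SP 3 h, all above the control. In SP 24 h it was 0.534, 0.580 and 0.550, which overlapped the control. It was 0.670, 0.625 and 0.733 in control 3 days, against 0.482, 0.476 and 0.547 in SP 3 days and 0.436, 0.488 and 0.471 in SP 12 days, all below the control. With 3 libraries against 3, a two-sided exact permutation test cannot give a p below 0.1, and it gave p = 0.1 for each of these 3 differences (BH-adjusted p = 0.133 over the 12 comparisons of 3 ratios). The ratio of KEAP1 to NFE2L2 was 6.25, 5.19 and 7.11 in control 3 days, 2.62, 2.52 and 2.36 in SP 3 days, and 2.57, 3.08 and 2.64 in SP 12 days. In the second table it was 6.68, 7.03 and 13.9 in control 24 h, 4.21, 3.47 and 2.37 in SP 3 h, and 4.75, 5.27 and 6.15 in SP 24 h. In all 4 comparisons it was lower with SP without overlap (exact permutation p = 0.1 each). The size of this ratio rests on the exon lengths used, 3573 bp for KEAP1 and 14975 bp for NFE2L2, while its change between groups does not. The third ratio, FTL to FTH1, was 7.65, 6.85 and 5.78 in control 24 h against 5.59, 5.60 and 5.77 in SP 24 h, and 6.43, 6.03 and 5.24 in control 3 days against 6.95, 6.59 and 7.25 in SP 12 days. It lay below the control at 24 h and above it at 12 days without overlap (exact permutation p = 0.1 each), and SP 3 h and SP 3 days overlapped their controls (exact permutation p = 0.7 and 0.2).

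**Figure D3:**
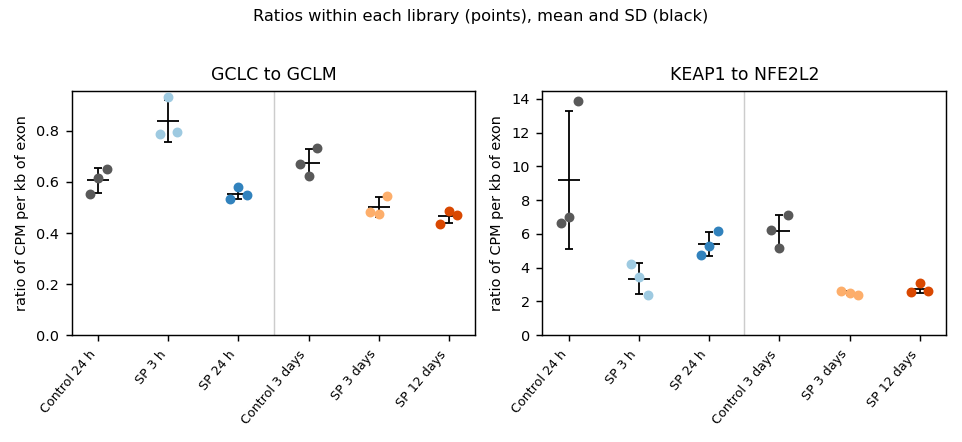
Ratio of CPM per kb of exon within each library (y axis) for GCLC to GCLM and KEAP1 to NFE2L2 by group (x axis), with points for libraries and black marks for the mean and SD of 3. GCLC to GCLM lies at 0.788 to 0.932 in SP 3 h and at 0.436 to 0.547 in both SP groups of the first table, and KEAP1 to NFE2L2 at 2.36 to 3.08 in the latter 2 groups.

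The thioredoxin system, which reduces oxidised protein thiols, had few genes that passed. TXN stood at 663, 454 and 429 CPM in control 24 h and at 346, 289 and 351 in SP 24 h, with no overlap. It stood at 412, 359 and 343 CPM in control 3 days, at 362, 353 and 357 in SP 3 days, and at 521, 490.0 and 387 in SP 12 days, with overlap in both. TXN fell by 0.65 ± 0.17 at 24 h (edgeR, adjusted p = 0.0187) and rose by 0.33 ± 0.10 at 12 days (edgeR, adjusted p = 0.0165). The call at 12 days was lost in 4 of 15 alternatives. With the GC and length correction its log2 fold change at 24 h was -0.15 and no longer passed, and the annotation lists 7 TXN pseudogenes that could share reads. TXNRD1, which reduces thioredoxin with NADPH, passed at no time, with log2 fold changes from -0.18 to 0.21. PRDX1, a peroxiredoxin, fell by 0.25 ± 0.09 at 12 days (edgeR, adjusted p = 0.0239). SRXN1, which repairs overoxidised peroxiredoxins, fell by 0.34 ± 0.10 at 24 h (edgeR, adjusted p = 0.0296), a call lost in 5 of 15 alternatives. An overlapping gene model covers 2292 bp of SRXN1 exons.

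The heme and iron genes moved in both directions. HMOX1, the inducible heme oxygenase that opens the heme ring, fell by 0.46 ± 0.10 at 3 days and by 0.59 ± 0.10 at 12 days (edgeR, adjusted p = 0.00198 and 0.000235), while its log2 fold changes at 3 h and 24 h were 0.23 and 0.04. With the GC and length correction HMOX1 also passed at 24 h, at -0.37. FTL fell by 0.42 ± 0.12 at 24 h, 0.72 ± 0.13 at 3 days and 0.36 ± 0.13 at 12 days (edgeR, adjusted p = 0.0247, 0.000208 and 0.0257). Of 15 alternatives, 4 lost the FTL call at 24 h and 3 that at 12 days. FTH1 fell by 0.86 ± 0.16 at 3 days and by 0.60 ± 0.16 at 12 days (edgeR, adjusted p = 0.000617 and 0.00682). Both ferritin chains, which form the shell that stores iron, have many processed pseudogenes (16 listed for FTL and 25 for FTH1), and how reads that map to several genes were counted is not stated.

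The heme transporter SLC48A1 and the biliverdin reductase BLVRB moved the other way. SLC48A1 stood at 39.9, 50.6 and 58.8 CPM in control 24 h and at 68.5, 84.5 and 80.6 in SP 24 h. It stood at 66.9, 59.7 and 72.6 CPM in control 3 days, at 89.8, 97.0 and 99.4 in SP 3 days, and at 100.4, 97.4 and 96.5 in SP 12 days, with no overlap in any of these comparisons. It rose by 0.65 ± 0.16 at 24 h (edgeR, adjusted p = 0.0168), by 0.52 ± 0.08 at 3 days (edgeR, adjusted p = 0.000102) and by 0.56 ± 0.08 at 12 days (edgeR, adjusted p = 4.76e-05). BLVRB, which reduces biliverdin and flavins with NADPH, stood at 181, 175 and 146 CPM in control 24 h and at 269, 264 and 287 in SP 24 h. In the first table it stood at 286, 259 and 334 CPM in control 3 days, against 362, 379 and 387 in SP 3 days and 345, 338 and 327 in SP 12 days, where the last group overlapped the control. BLVRB rose by 0.71 ± 0.12 at 24 h and by 0.36 ± 0.09 at 3 days (edgeR, adjusted p = 0.0021 and 0.00393). With the GC and length correction the 24 h values were 0.20 for SLC48A1 and 0.34 for BLVRB, and neither passed.

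**Figure D4:**
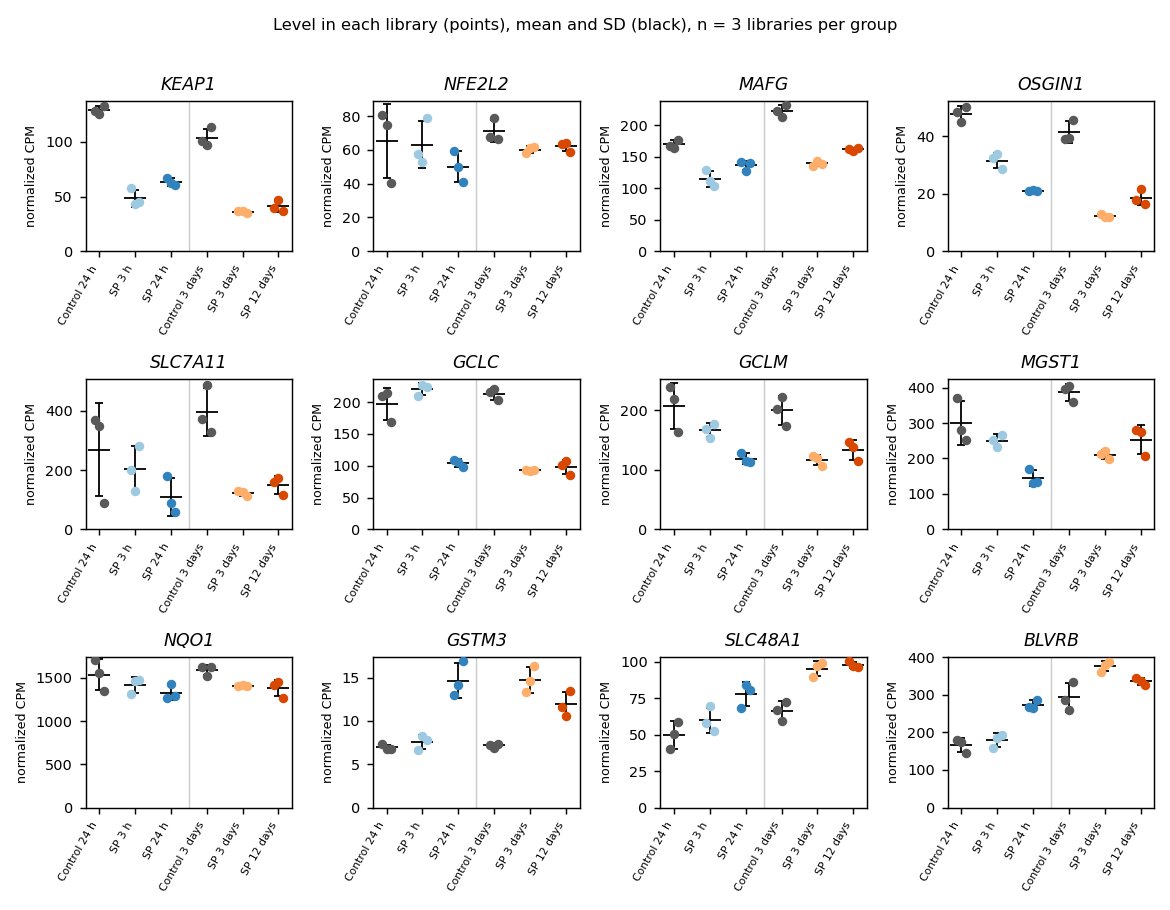
Normalized CPM (y axis, from 0) of 12 members in each library (points) by group (x axis), with the mean and SD of 3 libraries in black and a grey line between the 2 count tables. KEAP1 is below the control in every SP group, GCLC drops between SP 3 h and SP 24 h, and GSTM3 stands above 10 CPM in every library from SP 24 h on, against at most 7.39 in the controls.

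Of the 4 genes of NADPH supply and the pentose phosphate pathway, PGD, TKT and ME1 fell at 3 days and PGD, TKT and TALDO1 at 12 days. PGD, the second NADPH-yielding step of the pentose phosphate pathway, fell by 0.61 ± 0.10 at 3 days and by 0.82 ± 0.10 at 12 days (edgeR, adjusted p = 0.000117 and 6.1e-06). TKT, the transketolase that shuttles sugars between this pathway and glycolysis, fell by 0.61 ± 0.09 at 12 days (edgeR, adjusted p = 5.69e-05). Its fall at 3 days, 0.24 ± 0.09 (edgeR, adjusted p = 0.0426), was lost in 8 of 15 alternatives. At 24 h its value of 0.08 turned to -0.42 with the GC and length correction (edgeR, adjusted p = 0.0201). TALDO1, transaldolase, fell by 0.23 ± 0.08 at 12 days (edgeR, adjusted p = 0.0229). ME1, the cytosolic malic enzyme, had another course: it fell by 0.52 ± 0.12 at 24 h and by 0.30 ± 0.08 at 3 days (edgeR, adjusted p = 0.0099 and 0.00468), and its log2 fold change at 12 days was -0.08 ± 0.08. With the GC and length correction the calls of ME1 at 24 h and of FTL, PRDX1 and TALDO1 at 12 days were lost.

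Among enzymes of carbonyl, epoxide and glucuronide metabolism, EPHX1, the microsomal epoxide hydrolase, stood at 113, 159 and 126 CPM in control 24 h and at 198, 249 and 216 in SP 24 h, without overlap. It rose by 0.74 ± 0.19 at 24 h (edgeR, adjusted p = 0.0197), and with the GC and length correction the value was 0.42 (edgeR, adjusted p = 0.0589). In the first table it was at 310.0, 276 and 334 CPM in control 3 days, 344, 379 and 391 in SP 3 days, and 309, 278 and 414 in SP 12 days, and neither comparison passed. UGDH, which makes UDP-glucuronate, fell by 0.39 ± 0.09 at 3 days and by 0.31 ± 0.09 at 12 days (edgeR, adjusted p = 0.00225 and 0.00957). The carbonyl reductases CBR1 and CBR3 passed at no time, with log2 fold changes from -0.15 to 0.18 for CBR1 and from -0.30 to 0.40 for CBR3, and CBR3 was low, at 2.49 to 5.996 CPM.

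The remaining targets held the largest fall of the 34 genes at 3 days. OSGIN1 (ENSG00000140961, chr16:83931311-83966332), an oxidative stress induced growth inhibitor, stood at 48.5, 44.9 and 50.2 CPM in control 24 h, at 32.4, 33.8 and 28.5 in SP 3 h, and at 20.9, 21.3 and 21.1 in SP 24 h. In control 3 days it stood at 39.0, 39.6 and 45.9 CPM, against 12.8, 11.9 and 11.8 in SP 3 days and 17.96, 21.6 and 16.3 in SP 12 days. No SP library reached its control range. OSGIN1 fell by 0.60 ± 0.11 at 3 h (edgeR, adjusted p = 0.00657), by 1.18 ± 0.11 at 24 h (edgeR, adjusted p = 0.00011), by 1.77 ± 0.12 at 3 days (edgeR, adjusted p = 7.79e-09) and by 1.16 ± 0.11 at 12 days (edgeR, adjusted p = 4.74e-07). The 3 days value is a 3.41-fold difference, and with the GC and length correction the fall at 24 h was 1.85.

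TRIM16L, a near-copy of the ubiquitin ligase gene TRIM16, was sharpest at the first time. It stood at 232, 213 and 212 CPM in control 24 h, at 109, 93.3 and 103 in SP 3 h, and at 177, 146 and 165 in SP 24 h. The first table gave 215, 201 and 226 CPM in control 3 days, against 168, 163 and 171 in SP 3 days and 173, 170.5 and 204 in SP 12 days, where 1 library entered the control range. It fell by 1.11 ± 0.11 at 3 h (edgeR, adjusted p = 0.000705), and by 0.43, 0.36 and 0.23 at 24 h, 3 days and 12 days, the last call being lost in 6 of 15 alternatives. TRIM16 fell by 0.45, 0.36 and 0.25 at 3 h, 24 h and 3 days. Reads of these near-copies may be split between them. PIR, pirin, an iron-binding nuclear protein, fell by 0.59, 0.43 and 0.60 at 24 h, 3 days and 12 days. ABHD4, a lipase of N-acyl phospholipid metabolism, passed in no comparison with control, with log2 fold changes from -0.19 to 0.28.

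Direct tests between the times set the SP groups of a table against each other. Between SP 3 h and SP 24 h, 5 members were higher and 7 lower at 24 h (edgeR, adjusted p under 0.05), against 11.7% and 8.4% of all tested genes. GCLC was lower at 24 h by a log2 value of -1.08 ± 0.11 (edgeR, adjusted p = 0.00059), and MGST1 by -0.78 ± 0.16 (edgeR, adjusted p = 0.00955). TRIM16L was higher at 24 h than at 3 h by 0.68 ± 0.11 (edgeR, adjusted p = 0.00283), while KEAP1, at 0.38 ± 0.12, missed the threshold (edgeR, adjusted p = 0.0506). When 12 days of SP was set against 3 days, 2 members were higher and 1 lower at 12 days, against 4.46% and 3.65%. OSGIN1 was higher at 12 days by 0.61 ± 0.12 (edgeR, adjusted p = 0.00506), TXN was higher by 0.38 ± 0.10, and TKT was lower by -0.37 ± 0.09. The other 31 did not pass, which does not show that they stood still.

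Other genes of the same pathways were counted from lists chosen by function. Of 16 regulators and partners of NRF2, 2 rose and 1 fell at 3 h, 1 and 4 at 24 h, 1 and 7 at 3 days, and 2 and 6 at 12 days. In time order, 12.5%, 6.25%, 6.25% and 12.5% of this list rose, against 7.39%, 16.8%, 25.2% and 26.4% of all tested genes, and 6.25%, 25%, 43.8% and 37.5% fell, against 4.11%, 12%, 23.3% and 23.4%. NFE2L3, a relative of NRF2, rose at every time, by 0.70 ± 0.19, 1.11 ± 0.19, 1.96 ± 0.11 and 2.02 ± 0.11 (edgeR, adjusted p = 0.0429, 0.00265, 1.27e-09 and 7.71e-10). SQSTM1, which sequesters KEAP1 for autophagy, fell by 0.66 ± 0.09 at 24 h, and CREBBP, an acetyltransferase coactivator, fell by 1.00 ± 0.08 at 3 days and by 1.11 ± 0.08 at 12 days. ATF4, a stress transcription factor also known to drive SLC7A11, fell by 0.51 ± 0.13 at 3 h and by 0.85 ± 0.08 at 3 days. At 3 h MAFF, another small MAF gene, rose by 0.82 ± 0.21.

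Of 24 tested genes also known as NRF2 targets, 5 rose and 10 fell at 3 days, and 6 rose and 10 fell at 12 days, after 1 and 1 at 3 h and 5 and 1 at 24 h. In time order, 4.17%, 20.8%, 20.8% and 25% of this list rose, against 7.39%, 16.8%, 25.2% and 26.4% of all tested genes. The share that fell was near that of all tested genes at 3 h and below it at 24 h (4.17% against 12%). It was above that of all tested genes at 3 and 12 days (41.7% at both against 23.3% and 23.4%). SLC3A2, the heavy chain that pairs with SLC7A11, fell by 1.32 ± 0.11 at 3 days and by 1.01 ± 0.11 at 12 days (edgeR, adjusted p = 1.06e-07 and 1.58e-06). SLC6A9, a glycine carrier, fell by 1.41 ± 0.11 and 1.12 ± 0.11 at the same times. TIPARP, an ADP-ribosyltransferase gene, rose by 0.96 ± 0.23 at 3 h, and GSTM4, a second mu-class transferase, rose by 0.94 ± 0.20 at 24 h. PANX2, a pannexin channel gene, rose by 0.99 ± 0.13 at 3 days.

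Of 29 tested antioxidant enzymes outside the list of 34, 1 rose and 0 fell at 3 h, 4 and 12 at 24 h, 5 and 10 at 3 days, and 9 and 9 at 12 days. In time order, 3.45%, 13.8%, 17.2% and 31.0% of this list rose and 0%, 41.4%, 34.5% and 31.0% fell, so that at 12 days both shares were near those of all tested genes (26.4% and 23.4%). GPX3, the secreted glutathione peroxidase, rose by 0.99 ± 0.14, 1.31 ± 0.14 and 1.39 ± 0.14 at 24 h, 3 days and 12 days. GPX4, which reduces lipid peroxides, rose by 0.78 ± 0.12 at 24 h and 0.64 ± 0.09 at 3 days. MSRA, a methionine sulfoxide reductase, fell by 1.36 ± 0.20 at 24 h, and GSTZ1, a zeta-class transferase, by 1.38 ± 0.09 at 12 days. Of 16 other NADPH supply genes, 0 rose and 1 fell at 3 h, 2 and 7 at 24 h, 2 and 8 at 3 days, and 3 and 7 at 12 days. The share of this list that fell was 6.25%, 43.8%, 50% and 43.8% in time order, against 4.11%, 12%, 23.3% and 23.4% of all tested genes, and the share that rose was below that of all tested genes at each time. MTHFD2, the mitochondrial folate dehydrogenase, fell by 0.73 ± 0.16, 2.25 ± 0.10 and 1.84 ± 0.10 at 24 h, 3 days and 12 days (edgeR, adjusted p = 0.0089, 1.34e-10 and 7.22e-10). IDH2, the mitochondrial isocitrate dehydrogenase that yields NADPH, rose by 0.78 ± 0.09, 0.96 ± 0.09 and 0.44 ± 0.09 at these times.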

How the data were processed

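RNA-seq libraries of A549 cells were analysed from 2 tables of read counts per Ensembl gene. Per the labels and methods, total RNA went into NEBNext Ultra libraries sequenced as paired ends; the submitters' processing notes name FastQC, STAR 2.7.9a, featureCounts, R 4.2.1, DESeq2 1.36.0 and GRCh38. The authors deposited raw counts with no normalization; strandedness and multi-mapping are not stated, so overlapping genes and near-copies stay uncertain. 

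Counts were fitted in R 4.3.3 with edgeR 4.0.16: filterByExpr (minimum count 10; leaving 17775 and 17377 genes, first table first), TMM factors (0.957 to 1.037), a robust quasi-likelihood model of the 9 libraries of a table with group only, and BH adjustment over all tested genes. A gene changed at an adjusted p under 0.05. Alternatives were DESeq2 1.42.0, its size factors, no filter, 2-group fits, a replicate block, a GC and length correction (99.8% of tested genes), the study's thresholds and leaving out each library. Exon lengths, coordinates and symbols came from GENCODE GRCh38, and promoters from RefSeq.

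All 34 genes are named. Library values are given for NFE2L2, KEAP1 and NQO1, and per comparison with control for up to 4 of the largest rises and falls with a mean count of at least 100; list genes follow the same rule with up to 2 each way. The genes and lists were chosen with earlier results of these data known. The ratios and the other members' library values were looked at after the fits. Residuals of same-numbered libraries correlated at 0.499, 0.170 and 0.504 between control 24 h and SP 24 h, a hint of pairing that comes from the data and not from the labels. The reported values are from the model without a block, and the replicate block is an alternative. On simulated counts with 200 changed genes, the model recovered 91.0% of 2-fold changes at 3 days and 56.7% at 24 h. In the data 48.6% and 28.8% of tested genes passed at these times. The BH adjustment is stricter when fewer genes change, so these recovery values may not hold for the data.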

Additional observations from a re-analysis of the deposited data

Results flagged for a closer look

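A total of 15 differences between SP times passed the direct edgeR test. They are differences between SP groups kept for different times, so the effects of SP and of culture time cannot be told apart in them. Values are log2 differences of the later against the earlier time.

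Between 24 h and 3 h, members of glutathione synthesis and conjugation separated: GCLC differed by -1.08, GCLM by -0.49 and MGST1 by -0.78, whereas GSTM3 differed by 0.94 and GSR by 0.34. SRXN1 differed by -0.35 and ME1 by -0.42. BLVRB differed by 0.61 and EPHX1 by 0.76. OSGIN1 differed by -0.58, ABHD4 by -0.46 and TRIM16L by 0.68. GCLC, GSTM3, MGST1, OSGIN1 and TRIM16L kept their call in all 15 alternatives.

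Between 12 days and 3 days, TXN differed by 0.38, TKT by -0.37 and OSGIN1 by 0.61, and of these OSGIN1 kept its call in all 15 alternatives.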

How the results depend on the processing

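Of 80 calls of members over the 6 comparisons, 50 were kept in all 15 alternatives and none changed direction. Kept in all were 4 of 5 calls at 3 h, 6 of 18 at 24 h (GCLC, GCLM, GSTM3, KEAP1, MGST1, OSGIN1), 18 of 21 at 3 days and 16 of 21 at 12 days. With the study's thresholds the counts of changed members became 0 at 3 h and 24 h, 5 at 3 days, 4 at 12 days and 0 in both comparisons between times. Without the count filter, 6 members in place of 3 differed between 12 and 3 days. Leaving out each library gave 4 to 7 changed members at 3 h, 9 to 19 at 24 h, 19 to 27 at 3 days and 17 to 26 at 12 days. It gave 6 to 15 between 24 h and 3 h and 1 to 16 between 12 and 3 days. At 24 h the count was 9 without SP 24 h replicate 2 and 11 without SP 24 h replicate 3, in place of 18, and the calls lost without the former were among others those of TXN, EPHX1, SLC48A1, SRXN1, PIR, TRIM16 and TRIM16L. Between 24 h and 3 h it was 7 without SP 3 h replicate 3 or SP 24 h replicate 2 and 6 without SP 24 h replicate 3, in place of 12. Between 12 and 3 days it was 1 without SP 3 days replicate 2 or 3 or SP 12 days replicate 1, and 16 without SP 12 days replicate 3. With the replicate number as a block, the counts in time order were 6, 18, 23 and 21, and 15 and 3 between times. At 24 h, where same-numbered libraries deviated together, the block ended the call of MAFG and added a fall of PGD (edgeR, adjusted p = 0.0431), so the count stayed at 18. Elsewhere same-numbered libraries did not deviate together as a set (SP 3 h with control 24 h: -0.09, -0.03 and -0.59), though replicate 2 of SP 3 h and SP 24 h correlated at 0.377. Libraries of other numbers did: control 24 h replicate 1 with SP 3 h replicate 3 at 0.576, and replicate 3 with SP 3 h replicate 2 at 0.519. The block by number therefore does not follow the shared deviations at 3 h. The cause of the changes in counts was not tested, apart from fewer libraries in the fits that leave a library out. For the fits without the filter, with the block or without a library, the shares of all tested genes that passed are not given. The changes in counts are therefore not shown to be particular to the members. On simulated counts, which held fewer changed genes than the data, 2-fold changes were often missed at 3 h and 24 h. A member that did not pass then is not shown to be unchanged.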
